A study of Homo sapiens with 33 samples.

Results

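The comparison described here was between pleural mesothelioma cells 48 h after removal of palbociclib and cells still in the drug, in 4 established cell lines whose proliferation palbociclib blocks: H2052, H2452, H28 and MSTO-211H. It rests on 8 of the 33 RNA-seq libraries of the study. These are the 4 libraries labelled washout and the palbociclib libraries of the same 4 experiments, chosen by their labels and with no use of measured values. Of 58302 genes in the matrix, 15906 reached at least 100 counts per 20000000 reads (CP20M) in at least 1 of the 8 libraries and were tested.

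All 8 cultures had received 1 µM palbociclib for 10 days. The washout cultures were then rinsed with buffered saline and kept in medium without the drug for 48 h, so drug removal, the rinse, fresh medium and the later time of harvest cannot be told apart. A DMSO library of the same experiment (0.1% DMSO, 10 days) was available for each line and served as a further point. Each line had 1 library per condition in its experiment, so the 4 lines were the replicates. Differences were judged against their spread between lines, moderated by limma with the spread of all genes tested. The ± values of the fit of the 8 libraries are these moderated standard errors (3 residual and 4.03 prior degrees of freedom). The 4 lines can therefore spread more widely in a gene than its ± value.

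Palbociclib inhibits CDK4 and CDK6, the kinases that pair with D-type cyclins and begin the phosphorylation of the retinoblastoma protein (RB) in G1. Unphosphorylated RB and its relatives hold E2F transcription factors in check, and the DREAM complex, built on the MuvB core, represses many genes of S phase and mitosis in arrested cells. When the block is lifted, E2F targets needed for DNA replication are normally transcribed first, and genes of G2 and mitosis follow under B-MYB and FOXM1.

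The sequences below show letters that are typical of those promoters, upstream of genes with large changes in this comparison. Each run is the 150 bases before the transcription start in RefSeq (GRCh38.p14), written 5′ to 3′ on the gene's strand, with matches in capitals. The letters searched, on both strands, were the CHR element TTTGAA, the CCAAT box (ATTGG on the other strand) and the E2F motifs TTTGGCGC and TTTCCCGC. In MKI67 the last CHR match and the last ATTGG overlap. MKI67 (the Ki-67 proliferation antigen), KIF4A (a chromosome-bound kinesin) and DEPDC1 (a cell division protein) were the largest rises with a single listed start that hold both a CHR match and a CCAAT box. HIST1H2BO is the histone gene with the largest rise, and GINS2, a subunit of the replicative helicase, was the largest rise among replication genes with a single listed start and an E2F match in this stretch.
MKI67, chr10:128126424-128126573, minus strand: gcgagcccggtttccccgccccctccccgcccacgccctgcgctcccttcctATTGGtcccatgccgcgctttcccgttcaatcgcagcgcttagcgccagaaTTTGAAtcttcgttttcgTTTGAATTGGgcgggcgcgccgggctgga
KIF4A, chrX:70289954-70290103, plus strand: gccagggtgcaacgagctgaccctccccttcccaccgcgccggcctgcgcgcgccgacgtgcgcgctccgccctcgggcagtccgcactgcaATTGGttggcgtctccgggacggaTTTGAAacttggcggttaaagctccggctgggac
DEPDC1, chr1:68497083-68497232, minus strand: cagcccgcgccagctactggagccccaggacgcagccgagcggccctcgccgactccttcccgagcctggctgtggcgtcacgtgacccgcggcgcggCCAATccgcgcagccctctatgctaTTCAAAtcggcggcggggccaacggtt
HIST1H2BO, chr6:27893275-27893424, plus strand: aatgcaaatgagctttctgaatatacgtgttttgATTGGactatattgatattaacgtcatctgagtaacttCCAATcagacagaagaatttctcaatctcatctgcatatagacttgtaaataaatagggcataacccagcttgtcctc
GINS2, chr16:85688955-85689104, minus strand: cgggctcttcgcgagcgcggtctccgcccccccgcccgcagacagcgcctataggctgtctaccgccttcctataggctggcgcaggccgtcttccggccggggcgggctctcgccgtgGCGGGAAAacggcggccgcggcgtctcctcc

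Totals of the 12 libraries of these experiments lay between 20011253 and 20021400 CP20M, because the deposited values had been scaled. Gaps between low values place the H28 washout library at about 13330000 reads, the lowest of the 6 libraries for which such an estimate could be made. That library also had the highest share of mitochondrially encoded transcripts (3.80%, against 1.89% in the H28 palbociclib library), while in H2452 the share was 1.98% under palbociclib and 0.869% after washout. Of 16 mesothelial markers used to check the labels, at least 7 were at or above 100 CP20M in every washout library. The lowest number was 6 under palbociclib and 5 in DMSO. Not every marker was present in every library. The lowest level found was 3480 CP20M for KRT8 and 1556 CP20M for KRT18, but 11 CP20M for MSLN and 0 CP20M for CALB2. Of 14 markers of blood, endothelial and liver cells, at most 2 reached 100 CP20M in a library (CD68 and CD14 were the only ones tested), with a summed level of 353 to 1860 under palbociclib and 364 to 2165 after washout.

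After washout 330 genes were higher (2.07% of 15906 genes tested) and 7 were lower (0.044%) at a fold change over 1.5 and an FDR under 0.05. All 330 were higher, and all 7 lower, in 4 of 4 lines. The median log2 change of the 330 was 1.15, against 0.08 over all genes tested. Of the 330, 47 had passed the filter on low values through a washout library alone and so had to be higher there, and over all genes tested 594 had passed through washout libraries alone and 181 through palbociclib libraries alone. The calls were close to the threshold, with limma adjusted p-values from 0.0154 to 0.0498. Without H2052 or without MSTO-211H no gene was called (1729 and 2259 genes were higher at an unadjusted p under 0.05), without H28 167 genes were higher and without H2452 405. No gene was called when the filter on low values was dropped or the line was left out as a block. Without a mean-variance trend 19 were higher, and with a pseudocount of 1 91 were. Every one of the 330 had a positive change under each setting that tested it. Since all were higher in 4 of 4 lines, only the other scalings could have turned a sign.

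The largest rise was that of FAM111B, a serine protease. Its level was 32, 14, 97 and 55 CP20M under palbociclib and 513, 767, 303 and 301 CP20M after washout in H2052, H2452, H28 and MSTO-211H, the order kept in what follows. The groups did not overlap, and the log2 change was 3.12 ± 0.51 (moderated SE, n = 4 lines, limma adjusted p = 0.0388). The genes said here and below to show no overlap were picked for their large rises, so this describes them and adds no support. How many of all genes tested showed no overlap was not counted. FAM111B passed the filter on low values through its washout libraries alone. MKI67, located at chr10:128096659-128126423 in GENCODE release 44 (GRCh38), stood at 806, 177, 1816 and 777 CP20M under palbociclib and at 6920, 8328, 4824 and 3093 CP20M after washout, again without overlap (log2 change 2.99 ± 0.59, adjusted p = 0.0482). In H2052 and H2452 its washout level was above the DMSO level of the same experiment (4725 and 7680 CP20M), and in H28 and MSTO-211H it was below it (10717 and 5593 CP20M).

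The other 8 of the 10 largest rises were KIF20A (log2 change 3.03), IQGAP3 (3.00), CDK1 (2.93), RRM2 (2.91), AC007240.1 (2.90), KIF4A (2.88), DEPDC1 (2.87) and PBK (2.84), the last of which passed the filter on low values through washout libraries alone. CDK1, the kinase that drives entry into mitosis, went from 70, 32, 159 and 156 CP20M to 872, 1159, 525 and 561 CP20M. RRM2, the inducible subunit of ribonucleotide reductase, went from 344, 88, 697 and 395 CP20M to 3153, 3215, 1776 and 1734 CP20M. In both genes all washout values lay above all palbociclib values, and H2452 had the lowest palbociclib level. No position is given for AC007240.1, whose identifier is absent from GENCODE release 44.

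**Figure D1:**
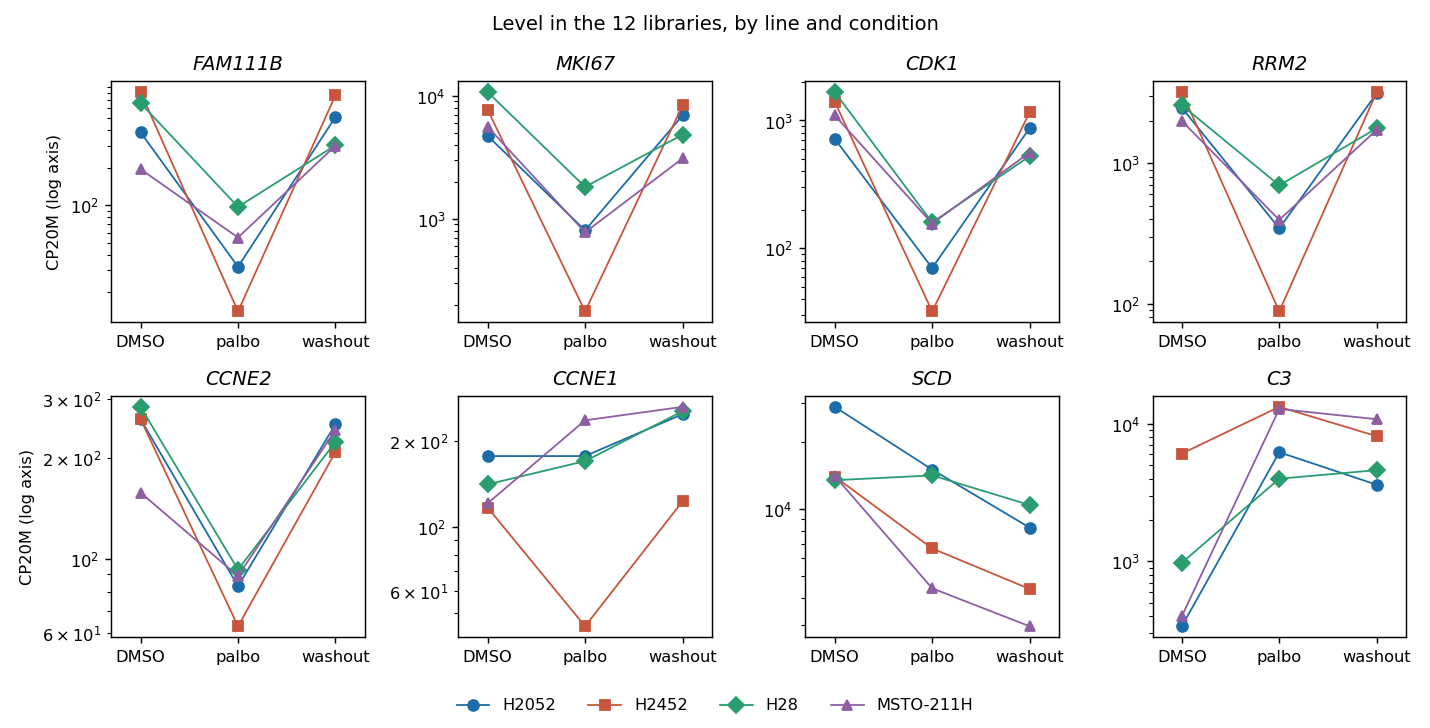
Level in CP20M (log axis) of 8 genes in the DMSO, palbociclib and washout library of each line, 1 library per point, with lines joining the libraries of a cell line. FAM111B, MKI67, CDK1, RRM2 and CCNE2 were called higher after washout, SCD was called lower, and CCNE1 and C3 were not called.

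Genes of mitosis were among those called. Of 28 mitotic kinesins and spindle proteins, 23 rose and none fell, with a median log2 change of 2.31. KIF20A, a kinesin of the central spindle in cytokinesis, went from 152, 55, 363 and 239 CP20M to 1650, 2841, 1211 and 749 CP20M. The 5 members not called also had positive values, down to 0.60 for CKAP5. Among 21 mitotic kinases and spindle checkpoint genes 14 rose (median 1.76). BIRC5, the survivin subunit of the chromosomal passenger complex, had the largest value of that list and missed the threshold (log2 change 2.85 ± 0.59, adjusted p = 0.0526), although its washout levels of 1034 to 2784 CP20M were all above its palbociclib levels of 36 to 405 CP20M. In the same list AURKA, which organizes spindle poles, had a value of 1.76 (adjusted p = 0.0639).

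Chromosome structure and segregation moved in the same direction. Of 19 genes of condensin, cohesin and topoisomerase 12 rose (median 1.47). TOP2A, the topoisomerase that untangles sister chromatids, went from 673, 226, 1216 and 1054 CP20M to 5081, 5544, 3610 and 3595 CP20M (log2 change 2.69 ± 0.45, adjusted p = 0.0391). Of 32 kinetochore and centromere genes 11 rose (median 1.29), from 2.67 for NDC80, a microtubule-binding subunit, down to 0.70 for SKA2. CENPT, an inner kinetochore protein, had a value of 0.06. In this list 31 of the 32 were higher in 4 of 4 lines and 0 were lower in 4 of 4. Of 24 genes of the APC/C and SCF ubiquitin ligases 6 rose, led by UBE2C, the APC/C-specific E2 enzyme (2.49, adjusted p = 0.0391), and the list median was 0.17 under the deposited scaling but -0.01 under upper-quartile scaling. The subunits and adaptors not called, such as SKP1, CDC27 and BTRC, lay between -0.05 and 0.26.

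Genes of DNA replication gave smaller values. Of 30 genes of origin licensing and fork assembly 13 rose (median 0.86), led by CLSPN, the checkpoint adaptor at replication forks. In this list 27 of the 30 were higher in 4 of 4 lines and 0 were lower in 4 of 4. CLSPN went from 94, 63, 392 and 136 CP20M to 454, 789, 902 and 512 CP20M, with no overlap (log2 change 2.16 ± 0.32, adjusted p = 0.0346). The abundant helicase subunits MCM2, MCM3 and MCM4 had values of 0.65, 0.70 and 0.75 and were not called (adjusted p = 0.134, 0.126 and 0.0659), and their washout and palbociclib levels overlapped. Of 26 DNA polymerases and fork enzymes 13 rose (median 0.76), with ASF1B, a histone chaperone, at 2.15 and POLD4, a small subunit of polymerase delta, at -0.27 and not called. Of 19 nucleotide synthesis genes 5 rose, RRM2 the most. TYMS, thymidylate synthase, had a value of 1.73 ± 0.35 that fell just outside the threshold (adjusted p = 0.0507). It overlaps its antisense neighbour TYMSOS, and since the strand setting of the counting is not given in the sources used here, their reads may not be separate.

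Replication-dependent histones package new DNA in S phase. Of 53 such genes 49 were tested and 29 rose, with a median log2 change of 1.68. HIST1H2BO went from 32, 22, 202 and 97 CP20M to 290, 474, 647 and 645 CP20M, without overlap (log2 change 2.75 ± 0.32, adjusted p = 0.0239), and its DMSO levels were 594, 1136, 2346 and 1827 CP20M, above the washout level in 4 of 4 lines. HIST1H1C, a linker histone and the most abundant member, rose by less (1.20 ± 0.19, adjusted p = 0.0378), and HIST1H2BK and HIST1H2AC, the next most abundant, had values of 0.51 and 0.38 and were not called. Histone genes are near-identical copies, so reads of single members are uncertain. Most of their mRNAs carry no poly(A) tail, and whether poly(A) RNA was selected is not given in the sources used here.

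Cyclins and regulators of the cycle divided by class. Of 14 cyclins E, A and B with their kinases and phosphatases 7 rose (median 1.32), and all 14 were higher in 4 of 4 lines. CCNE2, the cyclin E2 partner of CDK2, rose by 1.41 ± 0.11 on the log2 scale (adjusted p = 0.0154), going from 83, 63, 93 and 89 CP20M to 253, 209, 224 and 243 CP20M. It too passed the filter on low values through its washout libraries alone. Its paralogue CCNE1 was at 177, 45, 170 and 236 CP20M under palbociclib and at 248, 123, 254 and 263 CP20M after washout, with overlap and no call (0.61 ± 0.18, adjusted p = 0.11). CCNA2 and CCNB1, cyclins of S phase and mitosis, rose by 2.38 and 1.96.

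Of 11 D-type cyclins and CDK inhibitors only CDKN2C (p18, an inhibitor of CDK4 and CDK6) and CDKN3 (a phosphatase of CDKs) rose, by 2.08 and 1.94, and CDKN3 was below 100 CP20M in each palbociclib library. CCND1, the most abundant, was at 47136, 10773, 36254 and 20929 CP20M under palbociclib and at 38764, 12371, 29121 and 19974 CP20M after washout, with a value of -0.12 (adjusted p = 0.477). CDKN1A (p21) had a value of 0.52 (adjusted p = 0.154). Of 21 E2F, MuvB and FOXM1 regulators 3 rose: MYBL2 (B-MYB) by 2.55, FOXM1 by 2.27 and E2F7, a repressor in the E2F family, by 1.06. E2F1 had a value of 1.30 (adjusted p = 0.0609), its palbociclib levels of 144 to 660 CP20M overlapping its washout levels of 526 to 1318 CP20M. The subunits RBL2, RBBP4, TFDP1 and TFDP2 were not called.

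In DNA repair, 11 of 30 genes of homologous recombination and the Fanconi pathway rose (median 1.06). EXO1, an end-resection nuclease, went from 34, 32, 118 and 56 CP20M to 197, 294, 309 and 216 CP20M without overlap (log2 change 2.05 ± 0.24, adjusted p = 0.0239). BRCA1 had a value of 1.06 (adjusted p = 0.0524). Of 24 genes of mismatch and base excision repair 2 rose (8.33%), and of 19 damage checkpoint genes 2 rose (10.5%). The share over all genes tested was 2.07%. Higher in 4 of 4 lines were 15 of the 24 and 11 of the 19, and 0 of either were lower in 4 of 4. Among 20 genes of the lamina and of proliferation-linked chromatin 10 rose (median 0.87), LMNB1, lamin B1, by the most (2.27 ± 0.40, adjusted p = 0.0417). The LMNB1 level after washout was 588, 1507, 1412 and 790 CP20M, above the 85, 97, 546 and 327 CP20M under palbociclib and below the 1062, 2066, 3795 and 1553 CP20M in DMSO in 4 of 4 lines.

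**Figure D2:**
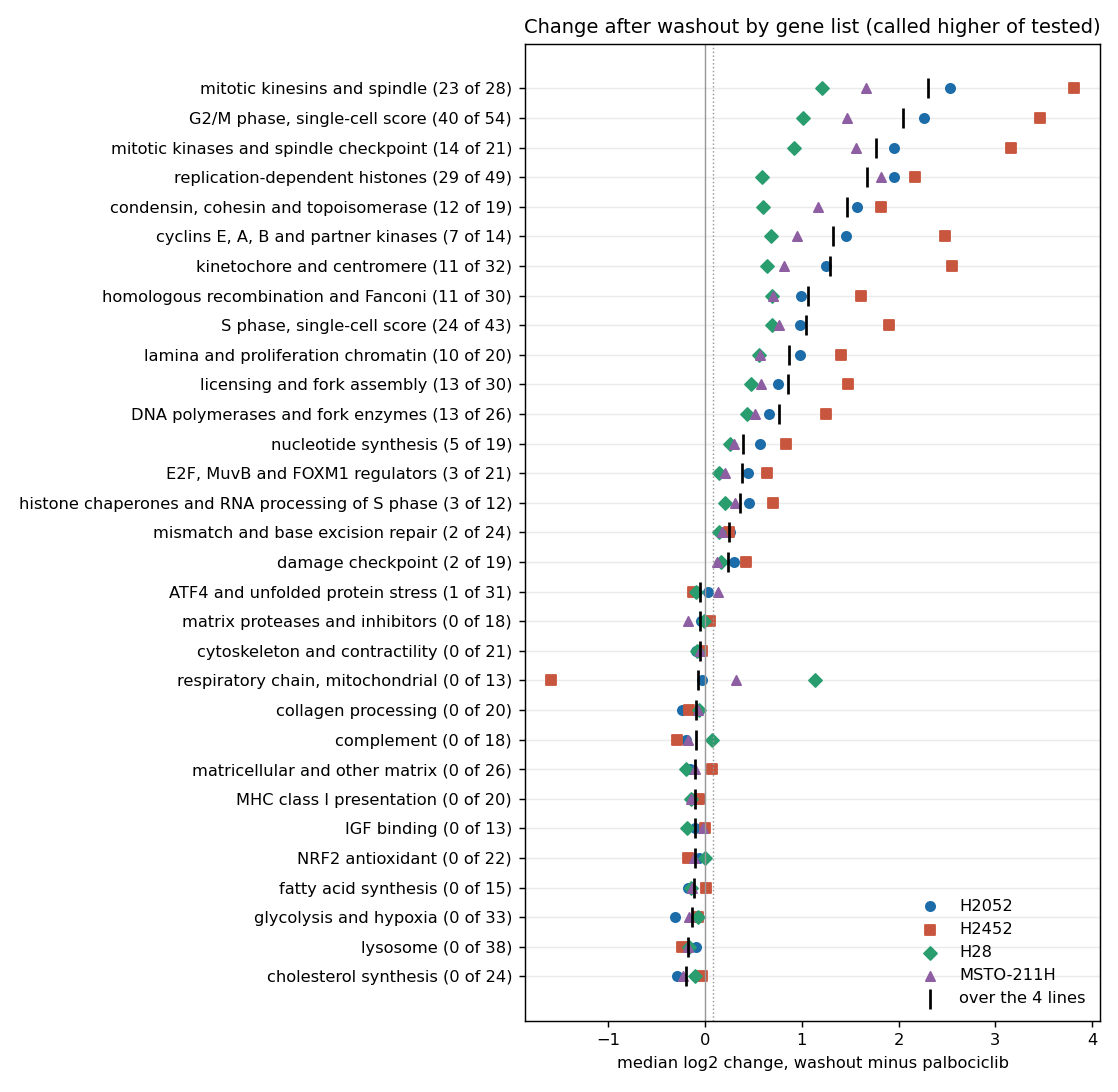
Median log2 change (washout minus palbociclib, on log2(CP20M + 10)) of gene lists in each line and over the 4 lines, for the 17 highest and 14 lowest lists with at least 10 genes tested. Numbers in brackets are genes called higher of genes tested, and the dotted line is the median of all genes tested. The cell cycle lists lie above 0 in each line with H2452 at the right in most and H28 at the left, and the mitochondrially encoded list spreads from -1.60 in H2452 to 1.14 in H28.

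Few other functions had calls. Over all genes tested 2.07% were called higher and 0.044% lower, so few or no calls are usual in lists of these sizes. No gene was called in either direction among 78 cytosolic ribosomal proteins (median -0.02), 48 nuclear-encoded respiratory chain genes (0.03), 42 interferon-stimulated genes (0.12), 27 p53 targets (0.22), 24 collagens (0.06), 20 genes of MHC class I presentation (-0.10) and 18 complement genes (-0.09). Under median-of-ratios or upper-quartile scaling, which moved the median of all genes from 0.08 to -0.06 and -0.10, the medians of the respiratory chain, interferon and collagen lists changed sign. Among 48 genes of ribosome biogenesis none was called, and the median of 0.18 was -0.01 at the lowest scaling. TNFSF15 among 24 cytokines and chemokines, PHGDH among 31 stress genes of the ATF4 pathway and ETV4 among 18 genes of ERK feedback were called higher, while SOD2 among 17 NF-kB feedback genes and SCD among 15 genes of fatty acid synthesis were called lower. Lists without calls could still lean downwards. Lower in 4 of 4 lines were 22 of 38 lysosome genes (median -0.17) and 10 of 24 cholesterol synthesis genes (-0.19). The same held for 9 of 20 MHC class I genes, against 1388 (8.73%) of all genes tested. Higher in 4 of 4 lines were 2, 0 and 1 genes of these lists. Of the 330 genes, 177 were in a list and 153 in none.

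The 7 genes called lower had small changes. ABAT, the enzyme that breaks down GABA, fell by 0.73 on the log2 scale (adjusted p = 0.0346), AC100827.3 by 0.70, LINC02035 by 0.67, SOD2 by 0.65, CPA4, a carboxypeptidase, by 0.65, SCD by 0.62 and MR1, an antigen-presenting molecule, by 0.61. SOD2, the mitochondrial superoxide dismutase and an NF-kB target, was at 15242, 42742, 18610 and 24937 CP20M under palbociclib and at 9812, 23517, 13991 and 15233 CP20M after washout (adjusted p = 0.0243). It was lower in 4 of 4 lines, by 0.41 to 0.86 on the log2 scale, although the levels of the groups overlapped because the lines differ. SCD, the stearoyl-CoA desaturase, went from 15056, 6650, 14173 and 4400 CP20M to 8250, 4370, 10430 and 2970 CP20M (adjusted p = 0.026). The washout level of SCD was also below DMSO in 4 of 4 lines (28831, 14006, 13486 and 14103 CP20M). The number of genes called lower depended on the scaling, with 58 under median-of-ratios and 109 under upper-quartile scaling.

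A further 56 genes were lower at an FDR under 0.05 but by less than 1.5-fold. Those with the smallest p-values were LRP1, a lipoprotein receptor (-0.50), SDC4 and HSPG2, heparan sulfate proteoglycans (-0.45 and -0.50), LDLRAD2 (-0.51), which overlaps HSPG2 on the opposite strand, and MAN2B2, a lysosomal mannosidase (-0.41), with adjusted p-values from 0.0239 to 0.0305. ICAM1, an adhesion molecule for leukocytes, had a value of -0.53 (adjusted p = 0.0477) and DPP4 a value of -0.45 (adjusted p = 0.0387). Both were still above DMSO after washout in 4 of 4 lines, ICAM1 at 12303, 12471, 44 and 4523 CP20M against 2023, 7542, 20 and 1286 CP20M in DMSO.

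None of the secreted factors in the panel of single genes was called. C3, the central complement protein, was at 6220, 13313, 3995 and 12848 CP20M under palbociclib and at 3610, 8143, 4611 and 10826 CP20M after washout (-0.38 ± 0.16, adjusted p = 0.2), against 337, 6083, 976 and 398 CP20M in DMSO. IL6, CXCL8 and CCL2 had values of -0.22, 0.08 and -0.06 with adjusted p-values of 0.529, 0.868 and 0.918. The sign of the value for CXCL8 and for CCL2 changed with the setting.

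The palbociclib effect in other experiments was used to ask what the called genes had done under the drug, since the experiments with a washout share their palbociclib libraries with this comparison. In 14 libraries of the same lines, 1147 genes were lower (6.93% of 16563 tested) and 655 higher (3.95%) in palbociclib than in DMSO. These classes rest on the deposited scaling, since median-of-ratios scaling called 673 genes lower and 1207 higher. Of the 1057 lower genes tested in both comparisons, 287 (27.2%) were called higher after washout and 1 was called lower, and 78.8% had positive values in 4 of 4 lines, against 3814 of the 15906 genes tested. The 287 were 87.0% of the 330. Of the other 43, 39 were lower under palbociclib without a call.

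Of the 644 genes that palbociclib had raised, none was called higher after washout and 4 (0.621%) were called lower, namely ABAT, SOD2, CPA4 and MR1. Their median washout change was -0.16, and 37.4% were lower in 4 of 4 lines, against 8.12% of the 14008 genes without a call under palbociclib. The median palbociclib change was 0.82 in the raised genes and -0.82 in the lowered genes, and the median washout change of the lowered genes was 0.54. SCD was the one gene lower in both comparisons.

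**Figure D3:**
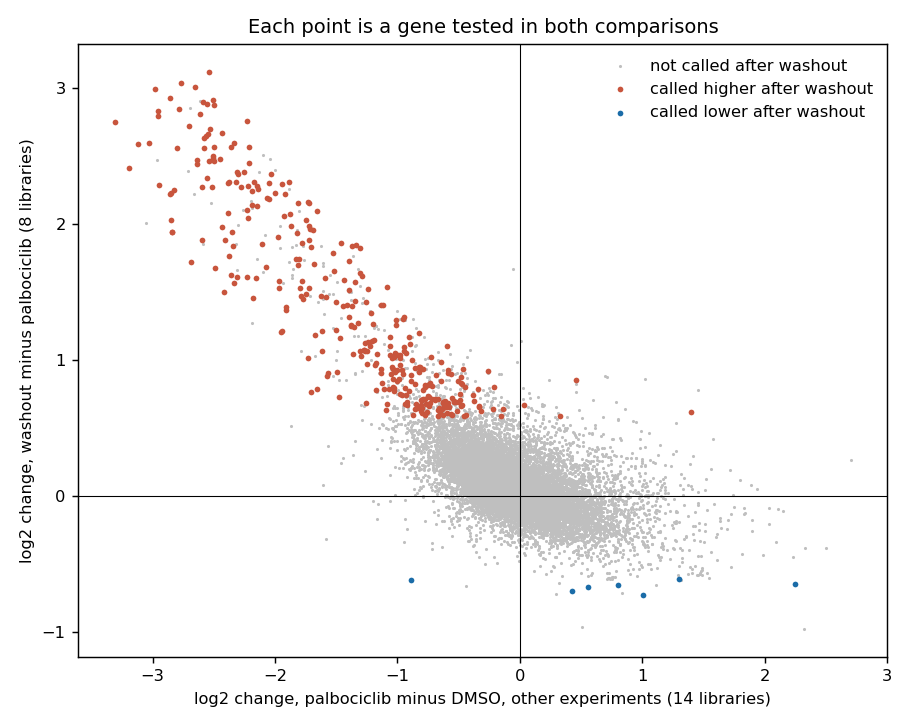
Log2 change after washout (8 libraries) against log2 change under palbociclib in other experiments (14 libraries), 1 point per gene tested in both. Genes called higher after washout lie mostly at the upper left, at negative palbociclib changes, and of the 7 genes called lower only SCD lies left of 0.

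With 1 library per line and condition, the 4 lines had different sizes of change in the same genes. The shares below describe these libraries, since genes are not replicates of a line. In the order given above, the median log2 change of the 330 genes was 1.27, 1.65, 0.80 and 1.01. H2452 had the largest change in 74.8% of the 330, against 38.1% of all genes tested, and H28 the smallest in 68.2%, against 34.2%. The starting points differed too. Against DMSO of the same experiment, the median of the 330 was -1.42, -2.08, -1.78 and -1.59 under palbociclib. After washout it was -0.02, -0.27, -0.96 and -0.60, so H2452 had fallen furthest and H2052 ended closest to DMSO. With 1 library against 1, 1112 genes were more than 1.5-fold higher (6.99%) and 191 more than 1.5-fold lower (1.2%) in H2052. For H2452 these numbers were 2185 (13.7%) and 466 (2.93%), for H28 1157 (7.27%) and 143 (0.899%), and for MSTO-211H 722 (4.54%) and 115 (0.723%).

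With the spread taken from 26 libraries of the 4 lines and experiment as a block, 72 genes were higher in H2052 (0.428% of 16841 tested) and 695 in H2452 (4.13%). The H2052 number was 15 under median-of-ratios and 12 under upper-quartile scaling. No gene was called in H28 (814 at an unadjusted p under 0.05, smallest adjusted p = 0.0583) or in MSTO-211H (414, smallest adjusted p = 0.257). Of the H2052 genes 59 were also called in H2452, which is 81.9% of the H2052 and 8.49% of the H2452 calls. One gene was lower in H2052 (0.00594%) and 15 in H2452 (0.0891%). Without the block, 3 genes were higher in H2052 and 512 in H2452.

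In this fit MKI67 was higher by 3.08 ± 0.50 in H2052 (adjusted p = 0.0362) and by 5.30 ± 0.48 in H2452 (adjusted p = 0.000326), while its values in H28 and MSTO-211H were 1.25 ± 0.48 and 1.79 ± 0.48 without a call. A test of the difference among lines called no gene (913 genes, 5.42%, at an unadjusted p under 0.05, smallest adjusted p = 0.0593, limma moderated F test), and 6 genes with a pseudocount of 50. In simulated data with changes planted in H2452 alone, this test found 0% of log2 changes of 1 and 25% of changes of 2. The fit by line found 17% and 67%. A lack of calls therefore does not show that the lines were alike or that a line did not respond. The smallest p-values in the test among lines were those of HIST1H3F, NPPB, NEURL1B, EMP2, TYMSOS, ID1, KCNQ5 and TNFRSF19. HIST1H3F, a histone H3 gene, had 15 CP20M under palbociclib and 486 CP20M after washout in H2452 and at most 2 CP20M in those 2 conditions in the other lines. NPPB, the B-type natriuretic peptide, went from 97 to 369 CP20M in H2452 and from 3611 to 2548, 7 to 2 and 2340 to 2268 CP20M in the others.

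Genes of S phase and of G2/M differed in the lists used for single-cell phase scores, which share members with the lists above. Of 43 S phase genes 24 rose (median 1.05), and of 54 G2/M genes 40 rose (median 2.05). By line, the S phase median was 0.98, 1.91, 0.70 and 0.76 and the G2/M median 2.26, 3.46, 1.02 and 1.47. The gap between the G2/M and S phase medians was 1.28, 1.55, 0.32 and 0.70. No test was made of this gap. Against DMSO of the same experiment, the G2/M median was -2.03, -3.25, -2.08 and -2.07 under palbociclib and 0.23, -0.07, -1.03 and -0.72 after washout. The S phase median was -0.92, -2.41, -1.65 and -1.04, and then 0.05, -0.30, -0.91 and -0.29. G2/M genes had thus fallen further in each line. After washout their median was lower than that of S phase genes in H28 and MSTO-211H and higher in H2052 and H2452. Fewer cycling cells and less RNA per cycling cell cannot be told apart in bulk libraries.

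Measured against DMSO of the same experiment, lines and functions ended at different levels. Mitotic kinesins and spindle genes were at a median of -2.19, -3.86, -2.24 and -2.34 under palbociclib and at 0.30, 0.02, -1.01 and -0.69 after washout. Licensing genes were at -0.75, -1.94, -1.26 and -0.97 and then at 0.08, -0.40, -0.76 and -0.27. Histones were at -3.18, -3.44, -2.37 and -3.20 and then at -0.99, -1.32, -1.58 and -1.35, below DMSO in each line. Of the 330 genes called higher, the washout level was at or above DMSO for 161, 67, 22 and 27 genes in the same order. The H28 washout library, which is far from DMSO, also has the lowest of those 6 estimates of depth and the largest mitochondrial share, and the part of these in its values was not tested beyond rescaling without mitochondrial genes, which called 365 genes higher over the 4 lines.

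**Figure D4:**
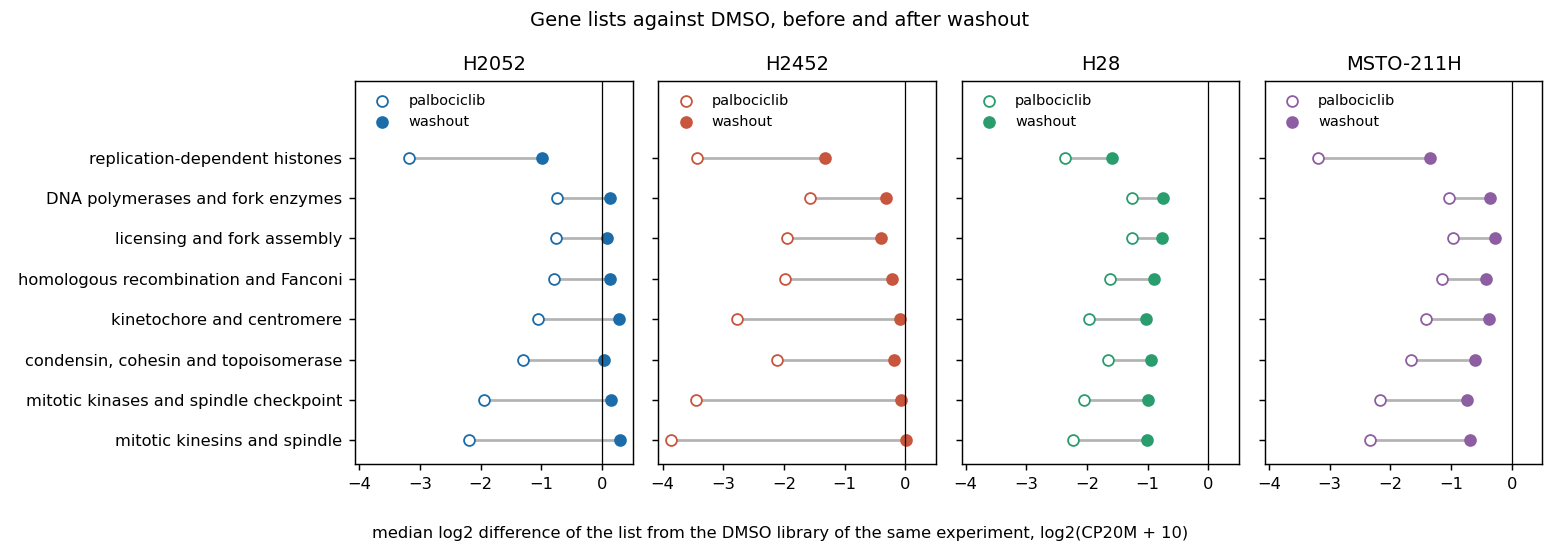
Median log2 difference of 8 gene lists from the DMSO library of the same experiment under palbociclib (open) and after washout (filled), by line, on log2(CP20M + 10). In H2052 the washout points of all lists but the histones lie above 0, in H2452 they lie between -0.40 and 0.02, and in H28 and MSTO-211H all lie below 0.

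Mitochondrially encoded mRNAs moved in opposite directions by line. The median change of 13 such genes was -0.03, -1.60, 1.14 and 0.31, and none was called. MT-CO1, a catalytic subunit of cytochrome oxidase, was at 39130, 92238, 108479 and 62929 CP20M under palbociclib and at 38958, 62094, 181759 and 67352 CP20M after washout. In H2452 12 of the 13 genes were more than 1.5-fold lower, and MT-CO1 was the exception. All 13 were more than 1.5-fold higher in H28. Nuclear-encoded genes of the same chain had medians between -0.08 and 0.16 in the 4 lines.

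The promoter letters shown above can be counted over the called genes as a description. Of the 330 genes, 250 matched a RefSeq promoter entry by symbol, with 320 windows of 300 bases (250 before to 50 after the start). CHR was found in 30.0% of them, against 10.5% of the 15464 windows of genes tested and 15.2% of all 35116 windows. CCAAT was found in 60.3%, against 34.6% and 34.6%, and either E2F motif in 12.2%, against 3.23% and 2.27%.

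Among called genes of the 4 mitotic lists CHR was in 61.7% and an E2F motif in 8.33% of 60 windows. Among called genes of the 3 replication lists CHR was in 10.3% and an E2F motif in 28.2% of 39 windows. Among called histones CCAAT was in 88.9%, CHR in 40.7% and neither E2F motif in any of 27 windows.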

How the data were processed

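RNA-seq libraries were made with a directional kit. The authors trimmed reads (Trimmomatic 0.36), aligned them with STAR 2.5.3 to GRCh38 and counted them per gene of Ensembl release 90 with HTSeq 0.9.1. The deposited values are CP20M, scaled per library and rounded up to whole numbers, and are treated as a score and not as counts, so no count model was run. The study describes its repeats of a line as independent experiments.

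The tests ran in limma 3.58.1 (R 4.3.3) after taking log2 of CP20M plus a pseudocount of 10 (empirical Bayes with trend, two-sided, Benjamini-Hochberg over all genes tested), so changes of low genes are understated. The main fit used 8 libraries with line as a block. Within lines the washout and palbociclib libraries deviated together (r 0.93 to 0.98), and the labels place them in the same experiment. DE meant a fold change over 1.5 and an FDR under 0.05, with genes of at least 100 CP20M in 1 library. Fits by line used 26 libraries with experiment as a block (1 washout library per line, assumed to vary like the others), and the palbociclib effect 14 libraries of other experiments. Scripts were tested on simulated data.

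The gene lists and their members were chosen with earlier results of these data known. Named genes were the 10 largest rises and falls among called genes with the same direction in 4 of 4 lines, up to 5 further genes by p-value, the largest rise, largest fall and highest members of each list, a panel, and the 8 smallest p-values among lines. FOXM1, E2F7, CDKN3, SKA2, GINS2, TNFSF15, PHGDH and ETV4 were named after their values were seen. Promoter windows were RefSeq entries matched by symbol. Alternatives were other filters, pseudocounts, scalings, moderation, blocks and left-out lines.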

Additional observations from a re-analysis of the deposited data

Results flagged for a closer look

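In 3 of the 54 named genes tested for it, and in none of 56 gene lists, the change of 1 line stood apart from the other 3 by Dixon's criterion for 4 values, which chance alone meets in about 1 in 20 sets. PLAT, the tissue plasminogen activator, had a log2 change of 1.52 in H2452, where its level went from 282 to 829 CP20M, while it went from 56904 to 53503, 169 to 132 and 30173 to 29237 CP20M in H2052, H28 and MSTO-211H. LRP1 had a log2 change of -0.40 in MSTO-211H, the smallest of its 4 decreases. DPP4 had a log2 change of -0.21 in MSTO-211H, where its level went from 2185 to 1893 CP20M.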

How the results depend on the processing

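The direction of the 330 rises held under the other scalings, but the number past the threshold changed with the setting. The remaining alternatives could not turn the direction, since all 330 were higher in 4 of 4 lines. Genes called higher numbered 0 without the filter on low values, 91 with a pseudocount of 1, 19 without a trend, 189 with robust moderation and 0 without the replicate block, and 0 to 405 when a line was left out. Genes called lower (7) numbered 0 with the DMSO libraries in the fit, without the filter, without a trend and without the replicate block, 4 and 2 with pseudocounts of 1 and 50, 58 and 109 under median-of-ratios and upper-quartile scaling, and 0 to 12 when a line was left out. With the mitochondrial genes left out of the scaling, an alternative chosen after seeing the data, 365 genes were higher and 8 lower. The 330 were all among those 365.

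By line, the replicate block changed calls: without it 3 genes were higher and 0 lower in H2052, 6 were lower in H2452 and 1 was higher in MSTO-211H. H2052 had 15 and 12 higher genes under median-of-ratios and upper-quartile scaling, 4 lower with a pseudocount of 50 and 0 lower with a filter on the mean. H2452 had 393 higher under upper-quartile scaling, and 30, 38 and 127 lower with a pseudocount of 50, median-of-ratios and upper-quartile scaling. H28 had 2 lower under either scaling. The test of differences among lines called 1 gene without the replicate block, 6 with a pseudocount of 50, 2 under median-of-ratios scaling and 1 with a filter on the mean. For palbociclib against DMSO elsewhere, 436 genes were higher with a pseudocount of 50, and 1207 were higher and 673 lower under median-of-ratios scaling. The cause of these changes was not tested.

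List medians near 0 changed sign: APC/C and SCF was -0.012 and ERK feedback -0.034 under upper-quartile scaling, and NF-kB feedback -0.066 and -0.11 under median-of-ratios and upper-quartile scaling. Cytokines were at 0.019 with a pseudocount of 50. With a line left out, cytokines ranged from -0.11 to 0.061, NF-kB feedback from -0.021 to 0.13 and ATF4 stress from -0.069 to 0.0017. Depth, estimated for 6 of 12 libraries, limits the values of low genes.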
